A study of Homo sapiens with 18 samples.

Results

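The 10 genes described here encode the kinases of the DNA damage checkpoint with an ATR partner (ATM, ATR, ATRIP, CHEK1 and CHEK2), the WEE kinases (WEE1 and PKMYT1) and the CDC25 phosphatases (CDC25A, CDC25B and CDC25C). They were chosen by name, and all 10 have a row in the deposited count table, which holds 20705 genes. Poly-A RNA was sequenced in 18 libraries, 2 for each of 9 groups of the human melanoma cell lines CHL1 (wild-type BRAF and NRAS, mutant p53) and A375 (mutant BRAF, wild-type p53). In CHL1 the groups were DMSO control for 72 hours, the CDK4/6 inhibitor palbociclib at 1 µM for 72 hours or for 6 days (CDK4/6i), and the PRMT5 inhibitor GSK3326595 at 500 nM for 72 hours (PRMT5i). A375 had the same 4 groups and a DMSO control of 6 days. The 6-day CHL1 cells were therefore compared with the 72-hour control, the only control of that line, and the 6-day A375 cells with their own control. Each genotype is represented by a single line. The methods give DMEM as the medium of CHL1 and RPMI as that of A375. Genotype, medium and line therefore cannot be told apart.

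ATM is activated by DNA double-strand breaks, and ATR, bound to its partner ATRIP, by single-stranded DNA at stalled replication forks. ATM phosphorylates CHEK2 and ATR phosphorylates CHEK1, and these kinases in turn mark CDC25 phosphatases for inhibition or degradation. WEE1 and PKMYT1 add inhibitory phosphates to CDK1 (WEE1 also to CDK2), and CDC25A, CDC25B and CDC25C remove them, so that their balance sets when cells enter S phase and mitosis. Palbociclib blocks CDK4 and CDK6, the kinases that release E2F transcription factors from RB, and GSK3326595 blocks the arginine methyltransferase PRMT5, which acts on splicing factors and histones. A transcript level measures neither the activity nor the phosphorylation of any of these enzymes.

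Levels are given in CPM, the count of a gene scaled to a common library size. Between 16213475 and 37424081 reads were counted on genes per library. In 4 libraries expression followed GC content: taking each gene's log2(CPM + 1) against its median over the libraries of the line, the median over the GC-richest 10% of genes less that over the GC-poorest 10% was -2.49 and -1.98 under PRMT5i in CHL1 and -2.27 and -1.12 in the 6-day control of A375, against -0.16 to 0.50 in the other 14. Changes of the 10 genes that rest on these libraries are therefore given also after a correction for GC content. Of the melanocyte lineage markers with a row, MITF lay between 63.8 and 211.4 CPM over both lines. DCT lay at a median of 81 CPM in CHL1 and 0.331 in A375, and CSPG4 at medians of 49.2 and 658.7. In the same order of lines, S100B had medians of 36.03 and 12.37 CPM, TYRP1 of 2.665 and 0.4379, and TYR of 0.03664 and 0.1615. PMEL did not exceed 3.25 CPM in any library, and SOX10 and MLANA had no row. The leukocyte gene PTPRC stood at 7.41 to 16.8 CPM in CHL1 and below 0.588 in A375, and EPCAM, of epithelium, did not exceed 2.59 CPM. The methods describe 2 replicates per condition without saying whether they were grown on separate occasions. The p-values therefore rest on the spread between libraries within groups, pooled over the groups of a fit, which may be partly technical.

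In control cells at 72 hours, the order of the 10 genes differed between the lines. Levels were divided by transcript length, as CPM per kb of the longest annotated transcript, to compare genes with each other. In CHL1, CHEK1 was at 26.9 ± 0.354 CPM per kb, CDC25B at 25 ± 2.45 and WEE1 at 22.5 ± 0.391 (SD, n = 2), and the libraries of CHEK1 and CDC25B overlapped. PKMYT1, CDC25A and ATR followed at 17.9, 16.2 and 14.7 CPM per kb, each overlapping its neighbour, and then CHEK2 at 12.3, CDC25C at 9.86, ATM at 5.9 and ATRIP at 3.49. In A375, CDC25B stood above the rest at 98.9 ± 10.1 CPM per kb, and PKMYT1 at 22.5, CDC25A at 21.1 and CHEK1 at 18.8 overlapped as neighbours. ATR lay at 17.2 CPM per kb, CHEK2 at 10.5, CDC25C at 9.52 and WEE1 at 8.46 (these last neighbours overlapped), and ATRIP and ATM were lowest at 7.26 and 6.16. ATRIP and ATM were thus the lowest pair in both lines.

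Between the lines, 4 of the 10 genes differed in the 72-hour controls, where 58.9% of all genes did (edgeR's quasi-likelihood test, Benjamini-Hochberg adjusted p below 0.05 over all genes, as in every comparison below). CDC25B was 3.96-fold lower in CHL1 (log2 difference -1.99 ± 0.24, SE, adjusted p = 8.38e-07) and ATRIP 2.08-fold lower (-1.05 ± 0.19, adjusted p = 9.41e-05), against 29.6% of genes lower in CHL1. WEE1 was 2.66-fold higher in CHL1 (1.41 ± 0.24, adjusted p = 6.78e-05) and CHEK1 1.43-fold higher (0.52 ± 0.18, adjusted p = 0.0174), against 29.3% of genes higher. CHEK1 was not called without replicate 1 of either control (adjusted p = 0.0592 and 0.105). The lines differ here also in medium, and in library set, as the CHL1 and the 72-hour A375 libraries carry different set names. Line, medium and set cannot be told apart.

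**Figure D1:**
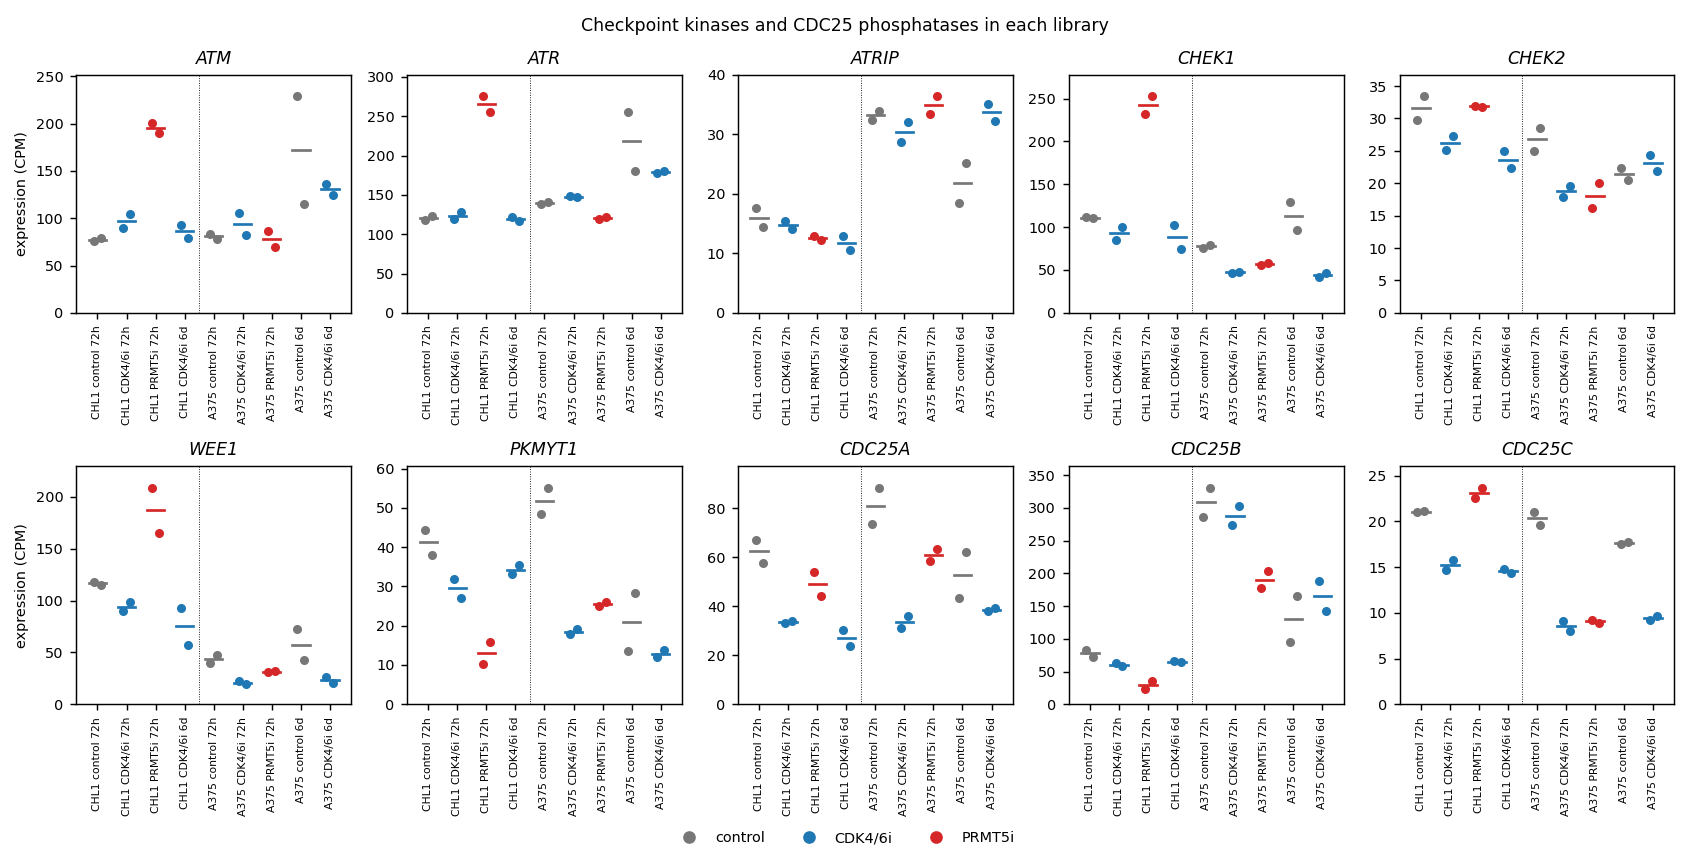
Expression of each gene (y axis, CPM on a linear scale from 0) in the 9 groups (x axis), with a point for each of the 18 libraries, a line for the mean of 2 libraries, and grey for control, blue for CDK4/6i and red for PRMT5i. CDC25A and CDC25C lie below their 72-hour control in both libraries of each CDK4/6i group, and the CHL1 PRMT5i libraries (red, left of the dotted line) stand at 232.3 and 252.8 CPM for CHEK1.

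CDK4/6 inhibition for 72 hours lowered 1 of the 10 genes in CHL1, CDC25A, and 5 in A375, namely CHEK1, WEE1, PKMYT1, CDC25A and CDC25C. Of all genes, 4.98% were called in CHL1 (2.72% lower) and 13.3% in A375 (7.11% lower). The median log2 fold change of the 10 genes was -0.29 in CHL1 and -0.68 in A375, where that of all genes was 0.00 in each. After 6 days CDC25A was again the gene lowered in CHL1, with 16.6% of all genes called and 7.8% lower. In A375 after 6 days CHEK1, WEE1, PKMYT1 and CDC25C fell and ATRIP rose, with 43.1% of all genes called, 21.3% lower and 21.8% higher. The share of the 10 genes called in A375 at 6 days is close to that of all genes. The comparisons of a line at 72 hours share its control, as does the 6-day comparison in CHL1.

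PRMT5 inhibition gave another pattern in each line. In CHL1, ATM, ATR, CHEK1 and WEE1 rose and PKMYT1 and CDC25B fell. Thus 6 of 10 genes were called there, where 54% of all genes were, 26.4% higher and 27.6% lower. The share of the 10 genes called in CHL1 is close to that of all genes. In A375, in the fit of all 10 libraries of the line, CDC25C was the 1 gene of the 10 called, lower, where 2.61% of all genes were called and 1.74% were lower. That count depended on the libraries fitted: with only the 6 A375 libraries of 72 hours, 7 of the 10 were called, all lower (CHEK1, CHEK2, WEE1, PKMYT1, CDC25A, CDC25B and CDC25C), where 15.8% of all genes were called and 9.13% were lower. A fit with the replicate number as a block, whose pairing the labels do not state, called 8 of the 10, where 29.5% of all genes were called. The median log2 fold change of the 10 genes was 0.09 in CHL1 and -0.49 in A375, against 0.00 for all genes. With the GC correction, ATM, ATR, ATRIP and CHEK1 were called in CHL1, all higher, where 33.8% of the 13692 genes tested were called.

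**Figure D2:**
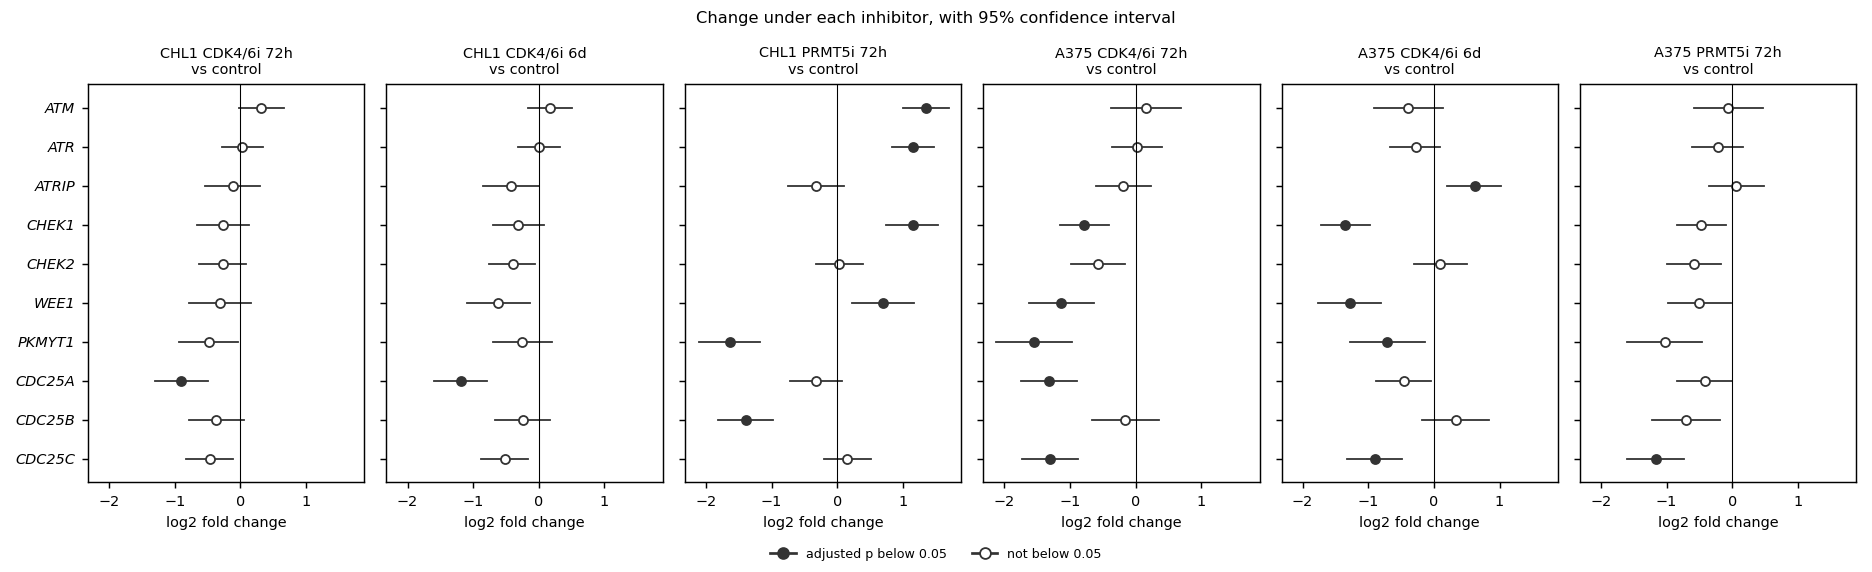
Log2 fold change against control (x axis) of each of the 10 genes (y axis) in the 6 comparisons, with 95% confidence intervals as lines and filled points where the adjusted p was below 0.05. Under 72 hours of CDK4/6i CDC25A lies at -0.90 in CHL1 and -1.32 in A375, filled in both, and the CHL1 PRMT5i panel holds rises up to 1.36 and falls down to -1.64.

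The GC correction also changed how many of the 10 genes were called in the other comparisons with control. Under CDK4/6i at 72 hours 5 were called in CHL1 (ATM higher; PKMYT1, CDC25A, CDC25B and CDC25C lower) and 7 in A375, against 16% and 29.1% of the genes tested. At 6 days 5 were called in CHL1, all lower (WEE1, PKMYT1, CDC25A, CDC25B and CDC25C), and 6 in A375, against 32.2% and 42.7%. In A375 under PRMT5i 6 were called, all lower (CHEK1, CHEK2, PKMYT1, CDC25A, CDC25B and CDC25C), against 10.7%. On the same genes without the correction, 72 hours of CDK4/6i gave 1 called gene in CHL1 and 6 in A375, against 6.64% and 18.3% of the genes tested. The 6-day treatment gave 2 and 5 on these genes, against 20.3% and 53.3%, and PRMT5i gave 1 in A375, against 2.88%.

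ATM (ENSG00000149311, GRCh37 chr11:108093771-108239829, plus strand) is the kinase that responds to double-strand breaks. In CHL1 its control libraries held 75.8 and 79 CPM, the CDK4/6i libraries 89.9 and 104.2 at 72 hours and 92.7 and 79.6 at 6 days, and the PRMT5i libraries 200.5 and 190.5. The PRMT5i libraries lay above all others of the line, and ATM rose 2.56-fold there (log2 fold change 1.36 ± 0.16, SE, adjusted p = 9.53e-05 by edgeR), or by 0.47 ± 0.10 with the GC correction (adjusted p = 0.00633). In A375 the libraries of 72 hours lay between 69.9 and 106 CPM in all 3 groups, which overlapped. The 6-day control of A375 held 229 and 114.6 CPM, a spread that enclosed the treated libraries at 136.5 and 124.6. ATM changed there by -0.39 (95% interval -0.92 to 0.14, adjusted p = 0.219), by 0.32 with the GC correction, and by 0.16 without replicate 1 of that control. The transcript of ATM is poor in GC (39.4%, at percentile 15.9 of all genes with a value). That is the property that the libraries standing apart followed. The ATM gene overlaps C11orf65 over 60584 bases on the opposite strand. Whether the libraries kept strand is not given, so reads of these genes may not be told apart there.

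ATR (ENSG00000175054, GRCh37 chr3:142167849-142297575, minus strand) senses stalled forks, and its transcript holds 39.7% GC. Its CHL1 libraries held 117.8 and 122.7 CPM in control, 118.8 and 127.9 after 72 hours and 122.1 and 116.8 after 6 days of CDK4/6i, while PRMT5i gave 275.5 and 255.6. The control and CDK4/6i libraries of CHL1 overlapped, with a change of 0.03 at 72 hours (95% interval -0.28 to 0.35) and of 0.00 at 6 days (-0.31 to 0.32). ATR rose 2.24-fold under PRMT5i in CHL1 (1.16 ± 0.15, adjusted p = 0.000121), and by 0.31 ± 0.10 with the GC correction (adjusted p = 0.0454). In A375 at 72 hours the control libraries held 139 and 140.9 CPM, the CDK4/6i libraries 148 and 147.9 and the PRMT5i libraries 119.9 and 121.8. These groups did not overlap, but the changes of 0.02 and -0.22 did not pass the test (adjusted p = 0.968 and 0.603). At 6 days the A375 libraries held 255.7 and 180.1 CPM in control and 177.4 and 180.1 under CDK4/6i, a change of -0.28 (adjusted p = 0.219) that became 0.35 with the GC correction (adjusted p = 0.0102).

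ATRIP (ENSG00000164053, GRCh37 chr3:48488114-48509044, plus strand), the partner of ATR, has a GC-rich transcript (58.6%). Its 8 CHL1 libraries lay between 10.5 and 17.6 CPM and those of A375 at 72 hours between 28.7 and 36.4, so the lines did not overlap. It was not called under CDK4/6i at 72 hours in either line (-0.12 and -0.19). In A375 at 6 days the control held 18.4 and 25.3 CPM and the treated libraries 35.2 and 32.3, without overlap. This rise of 0.62 ± 0.20 (adjusted p = 0.0184) was 0.01 with the GC correction (adjusted p = 0.961) and -0.02 against the 72-hour A375 control, and it was not called without replicate 1 of the control (adjusted p = 0.0512) or of the treated cells (adjusted p = 0.109). Under PRMT5i in CHL1 it stood at -0.32 (adjusted p = 0.18), and at 0.85 ± 0.22 with the GC correction (adjusted p = 0.0145). ATRIP shares 1835 bases on the same strand with TREX1. HTSeq at its default leaves out reads that fall on both genes, so the level of ATRIP is uncertain to that extent.

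CHEK1 (ENSG00000149554, GRCh37 chr11:125495058-125546150, plus strand) is the effector kinase of the ATR branch. Its A375 libraries at 72 hours held 75.8 and 79.6 CPM in control, 46.6 and 47.8 under CDK4/6i and 55.2 and 57.9 under PRMT5i. All treated libraries lay below both controls. CHEK1 fell 1.71-fold under CDK4/6i (-0.78 ± 0.17, adjusted p = 0.00784), a call that did not hold without any one of the 4 libraries (adjusted p = 0.057 to 0.108), and stood at -0.47 under PRMT5i (adjusted p = 0.176). The 6-day control of A375 held 129.8 and 96.9 CPM and the treated libraries 42.4 and 46.7, a 2.55-fold fall (-1.35 ± 0.17, adjusted p = 4.49e-05). It was -0.92 ± 0.09 with the GC correction (adjusted p = 7.89e-05) and -0.85 against the 72-hour control (adjusted p = 0.00148).

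In CHL1 the CHEK1 control held 112.1 and 110.1 CPM, which both libraries of CDK4/6i at 72 hours (85.4 and 99.7) and at 6 days (102.4 and 74.5) undercut. The changes of -0.27 and -0.31 did not pass the test (adjusted p = 0.46 and 0.265). Under PRMT5i the CHL1 libraries rose to 232.3 and 252.8 CPM, 2.21-fold above control (1.15 ± 0.18, adjusted p = 0.000324) and 0.50 ± 0.13 with the GC correction (adjusted p = 0.0179). The CHEK1 transcript holds 41.6% GC. Its gene overlaps STT3A by 53 bases on the same strand, and ACRV1 on the opposite strand.

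CHEK2 (ENSG00000183765, GRCh37 chr22:29083731-29138410, minus strand), the effector kinase of the ATM branch, was not called in any of the 6 comparisons with control. In CHL1 it lay at 29.7 and 33.4 CPM in control, 25.1 and 27.2 after 72 hours and 25 and 22.3 after 6 days of CDK4/6i, while the PRMT5i libraries held 32 and 31.8. In A375 it lay at 25 and 28.5 CPM in the 72-hour control, 17.8 and 19.6 under CDK4/6i, and 16.2 and 20 under PRMT5i. The treated A375 libraries of 72 hours thus lay below both controls, with changes of -0.57 under CDK4/6i (95% interval -0.98 to -0.16, adjusted p = 0.0609) and -0.58 under PRMT5i (-0.99 to -0.17, adjusted p = 0.134). Both were called with the GC correction, at -0.60 and -0.61 (adjusted p = 0.0141 and 0.0297). After 6 days its A375 libraries held 22.4 and 20.6 CPM in control and 24.3 and 21.9 under CDK4/6i, which overlapped (0.10, adjusted p = 0.69, and -0.19 with the GC correction). Copies of CHEK2 exist as pseudogenes, of which CHEK2P2 has a row with at most 64 counts in a library, so the level of CHEK2 is uncertain to that extent.

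WEE1 (ENSG00000166483, GRCh37 chr11:9595217-9615004, plus strand) holds CDK1 and CDK2 inactive in the nucleus, and PKMYT1 acts on CDK1 at membranes. In A375 at 72 hours WEE1 held 40.1 and 47.7 CPM in control, 22.4 and 19.2 under CDK4/6i, and 30.7 and 32 under PRMT5i. It fell 2.19-fold under CDK4/6i (-1.13 ± 0.23, adjusted p = 0.00418), a call lost without replicate 2 of the control (adjusted p = 0.0742) or of the treated cells (adjusted p = 0.0771). At 6 days the A375 control held 72.4 and 42.5 CPM and the treated libraries 26.3 and 20.9, a 2.43-fold fall (-1.28 ± 0.23, adjusted p = 0.000462), or -0.43 ± 0.14 with the GC correction (adjusted p = 0.0294). In CHL1 the control held 118 and 115.1 CPM. The CDK4/6i libraries lay below it at 89.8 and 98.4 after 72 hours and 93 and 57.3 after 6 days. These changes did not pass the test (-0.31, adjusted p = 0.475, and -0.62, adjusted p = 0.0738). With the GC correction they were -0.24 (adjusted p = 0.344) and -0.68 (adjusted p = 0.0123), the latter called. The PRMT5i libraries of CHL1 held 208.8 and 164.9 CPM, both above control, a rise of 0.70 ± 0.22 (adjusted p = 0.0162) that was -0.33 with the GC correction (adjusted p = 0.145). It was not called without either control (adjusted p = 0.0749 and 0.0849) or without replicate 1 of PRMT5i (adjusted p = 0.101). WEE1 has the transcript poorest in GC of the 10 (37.9%).

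PKMYT1 (ENSG00000127564, GRCh37 chr16:3018025-3030480, minus strand) has the transcript richest in GC (66.2%, percentile 97.9). Its gene overlaps PAQR4 over 4215 bases and KREMEN2 over 357 bases on the opposite strand. Whether the libraries kept strand is not given, so reads may not be told apart there. In A375 at 72 hours PKMYT1 held 48.5 and 55.2 CPM in control, 17.9 and 19.1 under CDK4/6i, and 25.1 and 26.1 under PRMT5i. All treated libraries lay below both controls, with a 2.92-fold fall under CDK4/6i (-1.55 ± 0.27, adjusted p = 0.0016) and -1.03 ± 0.27 under PRMT5i, which missed the threshold (adjusted p = 0.0545). At 6 days the controls held 13.5 and 28.3 CPM and the treated libraries 12.1 and 13.7, which overlapped the lower control. The change of -0.71 ± 0.27 (adjusted p = 0.0433) was -0.04 without replicate 2 of the control, was not called without either treated library (adjusted p = 0.192 and 0.0998), and was -1.24 ± 0.16 with the GC correction (adjusted p = 0.000314) and -2.05 against the 72-hour control (adjusted p = 3.55e-05).

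In CHL1, PKMYT1 held 44.3 and 38.1 CPM in control, 32 and 27.2 after 72 hours and 33.1 and 35.4 after 6 days of CDK4/6i, while PRMT5i gave 10.3 and 15.8. The CDK4/6i libraries lay below control without passing the test (-0.48 and -0.25, adjusted p = 0.217 and 0.451). Both changes were called with the GC correction, at -0.71 and -0.58 (adjusted p = 0.00743 and 0.00838). Under PRMT5i PKMYT1 fell 3.12-fold (-1.64 ± 0.21, adjusted p = 0.000139), and stood at -0.17 with the GC correction (adjusted p = 0.361). Per kb of transcript, WEE1 made up 54.2% and 57.4% of the sum of WEE1 and PKMYT1 in the CHL1 control libraries, 90.0% and 82.3% under PRMT5i in CHL1, and 26.9% and 27.8% in the 72-hour control of A375. After the GC correction WEE1 made up 62.7% and 65.3% in the CHL1 control and 62.0% and 60.1% under PRMT5i, so that the PRMT5i libraries no longer lay above control.

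**Figure D3:**
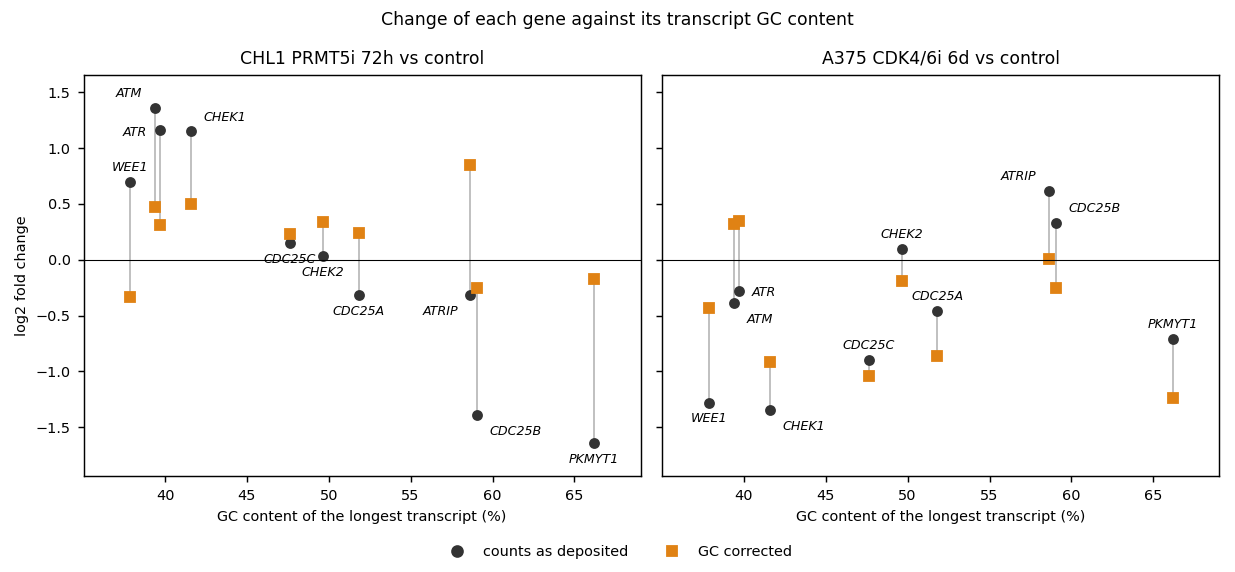
Log2 fold change (y axis) of each of the 10 genes against the GC content of its longest transcript (x axis, %) for PRMT5i in CHL1 and for 6 days of CDK4/6i in A375, with circles for the counts as deposited and squares after the GC correction. Under PRMT5i the genes at the poor end (WEE1, ATM, ATR and CHEK1, 37.9% to 41.6%) rose before the correction and PKMYT1, at 66.2%, fell to -1.64, and the squares lie between -0.33 and 0.85.

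CDC25A (ENSG00000164045, GRCh37 chr3:48198636-48229907, minus strand), which activates CDK2 and CDK1 and drives entry into S phase, was called lower under CDK4/6i in both lines at 72 hours and in CHL1 at 6 days. Its promoter is shown because CDC25A is known as an E2F target and was called in both lines at 72 hours of CDK4/6i, as PKMYT1 and CDC25C were with the GC correction. The 250 bases before its start site in the RefSeq table (GRCh38.p14, chr3:48188418-48188667, minus strand) are given 5′ to 3′, with an E2F site (TTTGGCGC, from position -44) and CCAAT boxes on the opposite strand (from positions -110 and -58) in capitals.
CDC25A promoter: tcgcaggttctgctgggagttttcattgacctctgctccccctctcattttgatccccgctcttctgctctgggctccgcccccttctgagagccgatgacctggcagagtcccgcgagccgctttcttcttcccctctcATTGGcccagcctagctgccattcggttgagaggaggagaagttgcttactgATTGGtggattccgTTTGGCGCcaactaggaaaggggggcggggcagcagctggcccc
The searched E2F letters (TTTGGCGC, TTTCCCGC or TTTCGCGC, on either strand) stood in the window of 250 bases before and 50 after a start site in 3.3% of all genes, and in 1 of the 8 genes described here that have a window, CDC25A. The CCAAT letters stood in 7 of the 8, against 39.7% of all genes. By window, the E2F letters stood in 1 of the 18 windows of these genes and in 2.74% of all windows. The CCAAT letters stood in 13 of the 18, against 34.6%. WEE1 and PKMYT1 had no entry in the promoter table. A match of letters shows neither binding nor use of a site.

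In CHL1, CDC25A held 67 and 57.8 CPM in control, 33.3 and 33.8 after 72 hours and 30.4 and 23.7 after 6 days of CDK4/6i, while PRMT5i gave 54.2 and 44.2. Every treated library lay below both controls. CDC25A fell 1.86-fold at 72 hours (-0.90 ± 0.18, adjusted p = 0.0191) and 2.28-fold at 6 days (-1.19 ± 0.19, adjusted p = 0.00208), and under PRMT5i it stood at -0.32 (adjusted p = 0.155). The call at 72 hours was lost without any one of the 4 libraries (adjusted p = 0.115 to 0.189).

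In A375 at 72 hours CDC25A held 73.5 and 88.4 CPM in control, 31.3 and 36.2 under CDK4/6i, and 58.6 and 63.3 under PRMT5i. It fell 2.5-fold under CDK4/6i (-1.32 ± 0.20, adjusted p = 0.000537), and stood at -0.42 under PRMT5i (adjusted p = 0.31). The 6-day control of A375 held 43.5 and 62.3 CPM and the treated libraries 38.2 and 39.2, below both controls. This change of -0.46 (adjusted p = 0.0725) was -0.86 ± 0.12 with the GC correction (adjusted p = 0.000485) and -1.11 against the 72-hour control (adjusted p = 0.000537).

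CDC25B (ENSG00000101224, GRCh37 chr20:3767419-3786768, plus strand) starts the activation of CDK1 at the centrosome. In the counts as deposited it was not called under CDK4/6i at either time in either line. With the GC correction it was called lower in CHL1 at both times (-0.48, adjusted p = 0.0144, and -0.37, adjusted p = 0.0219). In CHL1 it held 83.2 and 72.4 CPM in control, 63.1 and 57.9 after 72 hours and 65.3 and 64.8 after 6 days of CDK4/6i, while PRMT5i gave 23.6 and 34.9. The PRMT5i libraries stood below all others, 2.62-fold lower than control (-1.39 ± 0.19, adjusted p = 0.000184), and at -0.25 with the GC correction (adjusted p = 0.0921), for a transcript of 59.1% GC. In A375 it held 286.2 and 330.8 CPM in the 72-hour control, 273.5 and 302.6 under CDK4/6i, and 177.2 and 203.4 under PRMT5i. The CDK4/6i libraries overlapped the control, and the PRMT5i libraries lay below it without passing the test (-0.71, 95% interval -1.23 to -0.19, adjusted p = 0.145). At 6 days the A375 control held 95.6 and 165.7 CPM and the treated libraries 188.6 and 142.1, with a change of 0.33 (adjusted p = 0.288) that was -0.25 with the GC correction, -0.03 without replicate 1 of the control, and -0.94 against the 72-hour control (adjusted p = 0.00765).

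CDC25C (ENSG00000158402, GRCh37 chr5:137620958-137674044, minus strand) activates CDK1 at the start of mitosis. Genes expressed in G2 and mitosis often carry a cell cycle homology region (CHR, TTTGAA or TTTAAA) near their start, and the stretch of CDC25C that holds one before a listed start site (from position -30, GRCh38.p14, chr5:138331817-138331846, minus strand) is shown with it in capitals.
CDC25C CHR: gctggcggaaggTTTGAAtggtcaacgcct
These CHR letters stood in 3 of the 8 genes with a window (ATM, CDC25B and CDC25C) and in 27.9% of all genes. A gene can have several windows, and by window they stood in 4 of the 18 of these genes and in 24% of all. The match in CDC25B lay after the start site, at position 33. The CDC25C element shown also lies after another listed start site, at position 44. In A375, CDC25C held 21 and 19.6 CPM in the 72-hour control, 9.09 and 8.06 under CDK4/6i, and 9.27 and 8.92 under PRMT5i. Both inhibitors took every library below the controls, with a 2.47-fold fall under CDK4/6i (-1.31 ± 0.20, adjusted p = 0.000565) and a 2.26-fold fall under PRMT5i (-1.17 ± 0.20, adjusted p = 0.00762). The call under PRMT5i was lost without any one of the 4 libraries (adjusted p = 0.068 to 0.162). The 6-day control of A375 held 17.5 and 17.7 CPM and the treated libraries 9.18 and 9.7, a 1.87-fold fall (-0.90 ± 0.20, adjusted p = 0.00189), or -1.04 with the GC correction (adjusted p = 0.000371).

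In CHL1, CDC25C held 21 and 21.2 CPM in control, 14.6 and 15.8 after 72 hours and 14.8 and 14.4 after 6 days of CDK4/6i, while PRMT5i gave 22.6 and 23.7. The CDK4/6i libraries lay below both controls, but the changes of -0.47 (95% interval -0.83 to -0.11, adjusted p = 0.127) and -0.52 (-0.88 to -0.16, adjusted p = 0.0524) missed the threshold. Both were called with the GC correction, at -0.42 and -0.44 (adjusted p = 0.0428 and 0.0225). Under PRMT5i the change was 0.15 (adjusted p = 0.46), and 0.23 with the GC correction (adjusted p = 0.173). The gene overlaps FAM53C over 6421 bases on the opposite strand. Default counting uses strand, but whether the libraries kept strand is not given in the sources used here, so reads of the 2 genes may not be told apart there.

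The 3 CDC25 transcripts made up different shares of their sum in the 2 lines. Per kb of transcript, CDC25B held 49.5% and 48.2% of the sum in the CHL1 control libraries and 76.0% and 76.7% in the 72-hour control of A375. Under 72 hours of CDK4/6i the share of CDC25A went from 32.3% and 31.2% to 24.2% and 25.3% in CHL1, and from 15.8% and 16.6% to 8.1% and 8.5% in A375. Under PRMT5i in CHL1 the CDC25B share was 23.5% and 33.2%, and with the GC correction it was 37% and 40.2%, against 47.2% and 46.4% in the control. These shares were not tested.

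**Figure D4:**
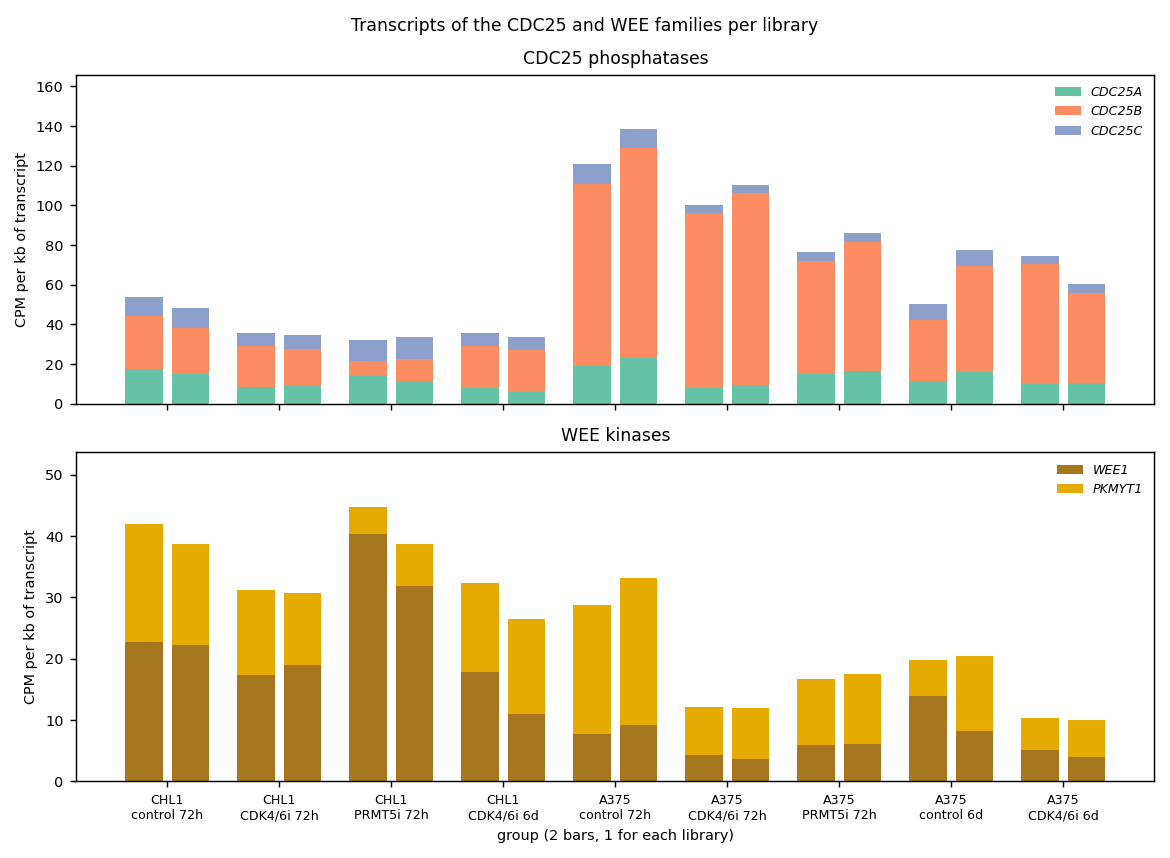
Stacked bars of CPM per kb of transcript (y axis, from 0, without GC correction) for CDC25A, CDC25B and CDC25C (top) and for WEE1 and PKMYT1 (bottom), with 1 bar for each of the 18 libraries in 9 groups (x axis). CDC25B makes up 49.5% and 48.2% of the CDC25 sum in the CHL1 control and 76.0% and 76.7% in the 72-hour control of A375, and WEE1 makes up 90.0% and 82.3% of the WEE sum under PRMT5i in CHL1, or 62.0% and 60.1% with the GC correction.

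The response to CDK4/6i was then compared between 72 hours and 6 days. By edgeR 0 of the 10 genes were called in CHL1 (6 days against 72 hours, 0.0145% of all genes called), 0 had an unadjusted p below 0.05, and 0 were called by DESeq2. The differences lay between -0.31 (ATRIP) and 0.23 (PKMYT1), and that of CDC25A was -0.29 (95% interval -0.69 to 0.11). In A375, where each time has its own control, 0 of the 10 changes differed between the times by edgeR (1.08% of all genes called), 5 had an unadjusted p below 0.05, and 0 were called by DESeq2. The largest of these differences were 0.86 for CDC25A (95% interval 0.26 to 1.46, adjusted p = 0.129), 0.84 for PKMYT1 (0.03 to 1.64, adjusted p = 0.236) and 0.80 for ATRIP (0.22 to 1.39, adjusted p = 0.143). These were 0.52, 0.58 and 0.35 with the GC correction and were not called either. Without replicate 2 of the 6-day control, 8 of the 10 were called, where 33.9% of all genes were. The A375 times also differ in library set, and time and set cannot be told apart there.

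At 72 hours the 2 inhibitors could be set against each other directly. In CHL1, 8 of the 10 genes differed between PRMT5i and CDK4/6i where 57.8% of all genes did. ATM, ATR, CHEK1, WEE1, CDC25A and CDC25C were higher under PRMT5i (28.4% of all genes), by 1.03, 1.13, 1.41, 1.01, 0.57 and 0.63 on the log2 scale, and PKMYT1 and CDC25B were lower, at -1.16 and -1.02 (29.4% of all genes). With the GC correction 6 were called, all higher (47.5% of the genes tested): ATRIP 1.08, CHEK1 0.68, CHEK2 0.59, PKMYT1 0.54, CDC25A 1.15 and CDC25C 0.65. PKMYT1, CDC25B and WEE1 thus changed direction with the correction, to 0.54, 0.23 and -0.09. ATRIP did too, from -0.20 without it (adjusted p = 0.399) to 1.08. Without the correction, CDC25A was not called without either CDK4/6i library (adjusted p = 0.119 and 0.0801) or replicate 1 of PRMT5i (0.0782), and CDC25C was not called without replicate 1 of CDK4/6i (0.0866).

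In A375, CDC25A was the 1 gene of the 10 that differed between the inhibitors in the fit of the whole line, where 5.45% of all genes did. With only the 6 libraries of 72 hours 5 of the 10 differed, against 22.1%, and with the replicate block 8 did, against 34.6%. It was 1.86-fold higher under PRMT5i than under CDK4/6i (0.90 ± 0.20, adjusted p = 0.0182), a call lost without any one of the 4 libraries (adjusted p = 0.115 to 0.226). CDC25C differed by 0.13 between the inhibitors (95% interval -0.31 to 0.57), at 8.06 to 9.27 CPM over the 4 libraries.

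Whether the lines responded differently was tested as the change in CHL1 minus the change in A375. Line, medium and library set cannot be told apart in this test. For CDK4/6i at 72 hours, 0 of the 10 differences were called by edgeR (0.642% of all genes were), 3 had an unadjusted p below 0.05 (WEE1, PKMYT1 and CDC25C), and DESeq2 called CDC25C. The differences were 1.01 for PKMYT1 (95% interval 0.25 to 1.78, adjusted p = 0.281), 0.78 for CDC25C (0.29 to 1.27, adjusted p = 0.163) and 0.77 for WEE1 (0.05 to 1.48, adjusted p = 0.444). With the GC correction PKMYT1 (1.13 ± 0.21, adjusted p = 0.00961) and CDC25C (0.84 ± 0.17, adjusted p = 0.0173) were called, against 3.85% of the genes tested. For CDC25A the difference was 0.37 (-0.20 to 0.94, adjusted p = 0.751).

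For PRMT5i, 5 of the 10 differences were called, all higher in CHL1 than in A375, where 40.9% of all genes were called and 18.8% were higher. They were 1.59 ± 0.25 for CHEK1 (adjusted p = 0.000261), 1.39 ± 0.33 for ATM (0.00299), 1.35 ± 0.23 for ATR (0.000376), 1.30 ± 0.23 for CDC25C (0.000523) and 1.17 ± 0.34 for WEE1 (0.0104). The median difference of the 10 genes was 0.87, and that of all genes -0.09. With the GC correction 8 were called, all higher (ATR, ATRIP, CHEK1, CHEK2, PKMYT1, CDC25A, CDC25B and CDC25C), where 26.2% of the genes tested were. CDC25C stood at 1.41 ± 0.17 (adjusted p = 0.000343), CHEK1 at 0.88 ± 0.16 and ATR at 0.41 ± 0.12, while ATM at 0.40 (adjusted p = 0.176) and WEE1 at 0.01 (adjusted p = 0.996) were not called. WEE1 was also not called without replicate 2 of the 72-hour A375 control (0.99, adjusted p = 0.0552). The order of the corrected values, with CDC25C first, therefore differs from that of the counts as deposited, with CHEK1 first.

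**Figure D5:**
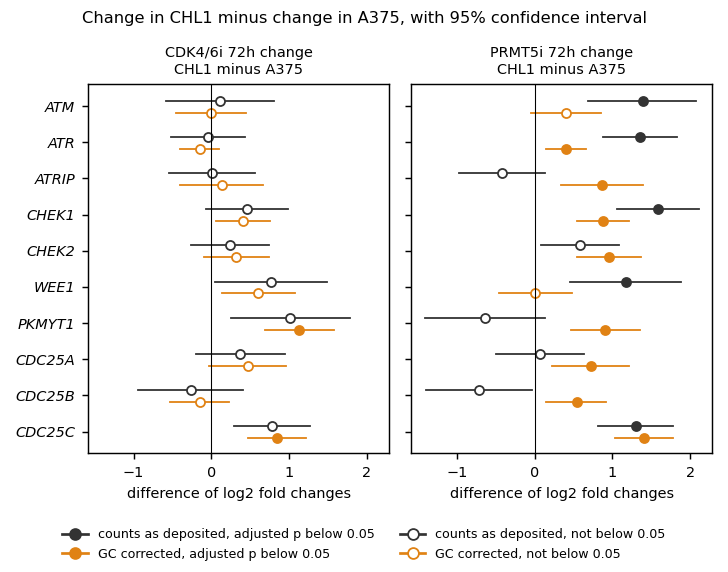
Change in CHL1 minus change in A375 (x axis, difference of log2 fold changes) of each of the 10 genes (y axis) for 72 hours of CDK4/6i and of PRMT5i, with 95% confidence intervals, in black for the counts as deposited and in orange after the GC correction, and filled where the adjusted p was below 0.05. CDC25C lies at 1.30 and 1.41 under PRMT5i on the 2 scales, and WEE1 at 1.17 and 0.01.

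CDK1 and its partner CCNB1 are the complex that the WEE kinases inhibit and the CDC25 phosphatases activate. CDK1 fell under CDK4/6i in A375 from 88.8 and 106.6 CPM to 29.9 and 29.2 at 72 hours (-1.78 ± 0.22, adjusted p = 9.79e-05), and from 242.9 and 143.9 to 35.2 and 28.2 at 6 days (-2.60 ± 0.23, adjusted p = 2.77e-06, and -1.65 with the GC correction). In CHL1 it stood at -0.76 at 72 hours (adjusted p = 0.0593) and -0.47 at 6 days (adjusted p = 0.153). With the GC correction it was called lower there at both times, at -0.71 (adjusted p = 0.0117) and -0.56 (adjusted p = 0.0154). Under PRMT5i it rose in CHL1 (1.58 ± 0.21, adjusted p = 0.000158, and 0.46 with the GC correction, adjusted p = 0.0335) and fell in A375 (-0.85 ± 0.22, adjusted p = 0.0498). CCNB1 fell under CDK4/6i in CHL1 at both times (-0.91, adjusted p = 0.029, and -0.90, adjusted p = 0.0126) and in A375 at both times (-1.13 ± 0.18, adjusted p = 0.000829, and -0.75 ± 0.18, adjusted p = 0.00407). At 6 days in A375 the change of CCNB1 was -0.39 with the GC correction (adjusted p = 0.0934).

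The other genes of the pathway were taken from lists of 55 genes by role, of which 53 have a row (RHNO1 and PPP2CA were not analysed here). Under CDK4/6i at 72 hours 4 of the 53 fell in CHL1 and 20 in A375, and at 6 days 10 fell in CHL1, while in A375 30 fell and 2 rose. Under PRMT5i 23 rose and 11 fell in CHL1, and 6 fell in A375, each against the shares of all genes given above. After the GC correction 10 rose and 9 fell in CHL1 under PRMT5i, and 26 fell and 6 rose in A375 at 6 days. Of the 13692 genes tested with the correction, 2314 rose and 2312 fell in CHL1 under PRMT5i. In A375 at 6 days 2873 of them fell and 2974 rose.

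Among the clamp, loader and mediators of the ATR branch (12 genes), CLSPN, which brings CHEK1 to ATR, fell most under CDK4/6i: -0.92 and -1.35 in CHL1 at 72 hours and 6 days, and -1.72 in A375 at 72 hours. That list had 1, 1 and 5 genes lower, and medians of -0.21, -0.34 and -0.63, against 0.00, 0.03 and 0.00 for all genes. In A375 at 6 days 7 fell, or 5 with the GC correction, led by ETAA1, an activator of ATR (-2.25, or -0.92 with the GC correction). Of all genes, without the GC correction, 2.72% and 7.8% were lower in CHL1 at 72 hours and 6 days of CDK4/6i, and 7.11% and 21.3% in A375. The 1 of 12 in CHL1 at 6 days is thus near the share of all genes. These shares hold also for the lists below. Under PRMT5i in CHL1, 6 of the 12 genes of the ATR branch rose and 3 fell, or 2 and 3 with the GC correction. Of all genes, without the correction, 26.4% were higher and 27.6% lower there. ETAA1 rose by 1.54, or 0.11 with the GC correction. TIMELESS, of the fork protection complex, fell (-1.51, or -0.95 with the GC correction). In A375 under PRMT5i 2 of the 12 fell, among them TIMELESS (-0.92), where 1.74% of all genes were lower.

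Of the 11 sensors and mediators of the ATM branch, 5 fell in A375 at 72 hours of CDK4/6i, BRCA1 most (-1.26 ± 0.17, adjusted p = 0.000143), and BRCA1 was the 1 that fell under PRMT5i in A375 (-0.81 ± 0.16, adjusted p = 0.0172). H2AX, the histone that ATM phosphorylates at breaks (listed as H2AFX), fell under 6 days of CDK4/6i in CHL1 (-0.77) and in A375 (-1.60, or -2.15 with the GC correction). In A375 at 6 days 6 of the list were lower, and 4 were lower and 2 higher with the correction. The ubiquitin ligases and 14-3-3 proteins, which degrade or hold back CDC25 proteins, had 1 of 11 lower in A375 at 72 hours (YWHAH, -0.66) and 5 at 6 days, or 6 lower and 1 higher with the GC correction. Of all genes, 7.11% were lower at 72 hours and 21.3% at 6 days, so the 1 of 11 is near the share of all genes. The kinase relatives and their assembly factors had 1 of 7 lower in A375 at 72 hours (TTI1, -0.76). PPM1D, a phosphatase that reverses checkpoint signals, fell in A375 at 6 days (-0.77, or -0.33 with the GC correction). Of the 9 cyclins and mitotic kinases, 3 and 6 fell in CHL1 and 8 and 8 in A375 under CDK4/6i at 72 hours and 6 days, the last being 6 with the GC correction. CCNA2 fell most at 72 hours, at -1.29 in CHL1 and -1.92 in A375.

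Genes with a like pattern were found among the 10356 genes whose mean reached 5 CPM in both lines, as those whose 6 log2 fold changes against control had the smallest root mean square difference from the gene. For CDC25A they were MYO19 (0.13) and TYMS, the thymidylate synthase that supplies dTMP (0.15), and for CDC25C FANCI, of the Fanconi anemia pathway (0.13), and CENPI, a centromere protein (0.15). For PKMYT1 they were TCF19 and ASF1B, a histone chaperone, each at 0.22. WEE1 was nearest to LRRC49 (0.11) and RBBP8, which acts in DNA end resection (0.13), and CHEK1 to ALG6 and SUZ12 (0.09 each). ATM was nearest to KIAA1551 (0.07) and MORC3 (0.09), ATR to RARS2 (0.08) and SCAND3 (0.10), ATRIP to STARD7-AS1 and CDK5RAP1 (0.08 each), CHEK2 to CDK5RAP2 (0.10) and CHCHD6 (0.11), and CDC25B to SPACA6P (0.15) and ST3GAL4 (0.16). The 6 changes share controls, and those that rest on the 4 libraries that followed GC content enter this measure.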

How the data were processed

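Reads of 18 poly-A libraries were aligned by the authors with HISAT to GRCh37 and counted per gene with HTSeq, and genes with low expression were removed with edgeR. The submitters' processing notes name HISAT2 2.0.4 and HTSeq 0.11.2. The deposited values are named as edgeR-normalised reads. They are whole numbers for 20705 gene symbols, with totals that differ between libraries, and were treated here as counts without normalization. HTSeq was run with default settings per the study's methods, which count reads on the strand of the gene and leave out reads that fall on several genes, while whether the libraries kept strand is not given in the sources used here. Libraries were grouped by line, drug and time from their labels. Counts were scaled by TMM and tested with edgeR 4.0.16 (R 4.3.3, quasi-likelihood test, fold changes with its prior count of 0.125), in a fit for each line with all its groups (8 libraries for CHL1, 10 for A375) and in a fit of all 18 libraries for differences between lines. A gene was called at a Benjamini-Hochberg adjusted p below 0.05 over all 20705 genes, and 95% intervals come from the same fits. Printed CPM use the TMM factors of all 18 libraries. Intervals and standard errors rest on the spread between the 2 libraries of each group, pooled over all groups of a fit and moderated across genes. They cover no other source of variation. In A375 that pool holds the 6-day control, whose libraries differed most of all groups by a chi-square of their counts.

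GC content and length came from the longest GENCODE transcript (release 44 lifted to GRCh37). The GC correction fitted a loess curve (span 0.4) of each library's deviation on GC content over the 13692 genes whose mean reached 1 CPM and that had a value (87.3% of the 15677 genes at that level) and entered it as an offset. Promoter letters came from RefSeq (GRCh38.p14), where 8 of the 10 genes had an entry. The scripts were tested on simulated data. The 10 genes and the pathway lists were chosen with earlier results of these data known. In each pathway list, the called gene with the largest rise and the one with the largest fall could be named if its mean was at least 5 CPM, and CDK1 and CCNB1 always were. Alternatives were median-of-ratios scaling, DESeq2 1.42.0, a filter of 1 CPM in 2 libraries, other sets of libraries in the fit, the GC correction, a replicate block and leaving out each library, which leaves a group with 1 library that is assumed to vary like the others.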

Additional observations from a re-analysis of the deposited data

Results flagged for a closer look

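The change under PRMT5i differed between the lines for 5 of the 10 genes by the test of the difference itself (edgeR, change in CHL1 minus change in A375). Of all genes, 40.9% were called in this test, and 18.8% were called and higher in CHL1. Each of the 5 was higher in CHL1: CHEK1 by 1.59, ATM by 1.39, ATR by 1.35, CDC25C by 1.30 and WEE1 by 1.17 on the log2 scale. The CHL1 PRMT5i libraries are among the 4 that followed GC content. With the GC correction the differences were 0.88, 0.40, 0.41, 1.41 and 0.01 in the same order, and those of ATM and WEE1 were not called. The correction also called CHEK2 (0.96), PKMYT1 (0.91), ATRIP (0.87), CDC25A (0.72) and CDC25B (0.54). Of the 13692 genes tested with the correction, 26.2% were called. Without it PKMYT1, ATRIP and CDC25B stood at -0.64, -0.42 and -0.71.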

How the results depend on the processing

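Fits that left out a library are not among the 728 alternative values counted here, and calls lost in them come on top. Of these 728 values, for 78 results of single genes, 578 kept their direction and side of the threshold. A further 89 passed it only under the alternative, 19 no longer passed it and 42 changed direction. The cause was not tested. Each group has 2 libraries, the 6-day CHL1 cells have no control of their own time, and values that rest on PRMT5i in CHL1 or on the 6-day A375 control depend on the GC correction.

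The shares in brackets are of all genes tested in the same fit. The number of the 10 genes called in CHL1 at 72 hours of CDK4/6i was 5 with the GC correction (16%) and 5 with only the compared groups (20.3%). In CHL1 at 6 days it was 2 with median-of-ratios size factors, with the filter on low counts, on the genes with a GC value, with only the compared groups and with all 18 libraries in a fit (15.9% to 21.9%), 3 with DESeq2 (18.4%) and 5 with the GC correction (32.2%). Under PRMT5i in CHL1 it was 3 with only the compared groups and the GC correction (33%). In A375 at 72 hours of CDK4/6i it was 9 with only the 6 libraries of 72 hours and the GC correction (40.7%). In A375 at 6 days it was 3 with only the compared groups (28.3%), and 8 against the 72-hour control with the GC correction (47.3%). Under PRMT5i in A375 it was 2 with median-of-ratios size factors, with all 18 libraries and with DESeq2 (2.45% to 4.4%), 6 with the GC correction (10.7%) and with only the compared groups (8.99%), and 7 with the 6 libraries of 72 hours (15.8%, or 23.1% with the GC correction). Between the inhibitors in A375 it was 4 with the GC correction (18.5%) and with only the compared groups (21.8%), 5 with the 6 libraries of 72 hours (22.1%) and 6 when these were corrected for GC content (30.6%). For the difference between lines it was 2 (GC correction, 3.85%) and 1 (DESeq2, 1.78%) under CDK4/6i and 8 (GC correction, 26.2%) under PRMT5i. The fits on genes with a GC value without correction, on subsets combined with the GC correction, and against the 72-hour control with it were chosen after seeing the data.

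Leaving out 1 library at a time, the number called was 0 in CHL1 at 72 hours of CDK4/6i, and ranged over 1 to 2 at 6 days, 3 to 4 in A375 at 72 hours and 3 to 7 at 6 days, and was 0 under PRMT5i in A375 and 0 between the inhibitors there. For the change in A375 at 6 days minus 72 hours it was 0 to 8, with 8 without replicate 2 of the 6-day control. Leaving out a library changes the test for every gene. Only for the fit without replicate 2 of the 6-day control is the share of all genes given, above. The other counts lack that share, so they cannot show whether these genes depend on single libraries more than other genes do. Directions also changed in these fits. In CHL1 at 72 hours of CDK4/6i, ATR ranged over -0.02 to 0.08 and ATRIP over -0.26 to 0.03. ATR ranged over -0.04 to 0.05 there at 6 days, and CHEK2 over -0.05 to 0.12 under PRMT5i in CHL1. In A375 at 72 hours, ATM ranged over -0.04 to 0.33 under CDK4/6i and -0.23 to 0.09 under PRMT5i. At 6 days in A375, ATM ranged over -0.78 to 0.16 and CDC25B over -0.03 to 0.82.

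No label states that libraries of equal number belong together. Correlations of same-numbered deviations from the group means were -0.336 to 0.444 in CHL1 and 0.218 to 0.481 in A375 at 72 hours. With 2 numbers a group these do not establish that the libraries were paired, although the A375 correlations were all positive, and the 6-day A375 labels carry none. With the replicate block, 8 of the 10 were called under PRMT5i in A375 (29.5%) and 8 between the inhibitors there (34.6%). With the replicate block and the GC correction, the numbers were 5 and 6 in CHL1 at 72 hours and 6 days of CDK4/6i (17.6% and 33.9%), 10 in A375 at 72 hours (53.4%), 7 under PRMT5i in A375 (39.1%) and 8 between the inhibitors (45.2%).

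Other changes of direction came as follows. ATR in CHL1 at 6 days, at 0.00, was -0.01 with median-of-ratios size factors, only the compared groups, all 18 libraries and DESeq2. Under PRMT5i in CHL1, the GC correction alone, combined with the replicate block and in a fit of only the compared groups gave 0.85, 0.83 and 0.86 for ATRIP, -0.33, -0.35 and -0.34 for WEE1 and 0.24, 0.23 and 0.24 for CDC25A. In A375 at 6 days, the GC correction, the 72-hour control, that control with the GC correction and only the compared groups with it gave 0.32, 0.64, 0.63 and 0.29 for ATM, 0.35, 0.31, 0.29 and 0.32 for ATR, -0.19, -0.26, -0.23 and -0.19 for CHEK2, and -0.25, -0.94, -0.77 and -0.25 for CDC25B, and ATRIP was -0.02 against the 72-hour control. Under PRMT5i in A375, the GC correction alone, with the replicate block and with the 6 libraries of 72 hours gave 0.03, 0.02 and 0.03 for ATM and -0.01 in each for ATRIP. Between the inhibitors in CHL1, the GC correction without and with the replicate block gave -0.09 and -0.10 for WEE1 and 0.54 and 0.54 for PKMYT1. For CDC25B it gave 0.23 and 0.23. ATRIP, not called there in the main fit and so not among these results, went from -0.20 to 1.08 with the GC correction.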
